A study of Mus musculus with 2 samples.

Results

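Ribosomal protein genes of the cytosol were examined in 3T3-L1 adipocytes kept with DF, a preparation of several herbs described as anti-obesity, and in untreated control adipocytes. The genes were chosen by symbol alone: any symbol made of Rpl or Rps and a number, with an optional a, x or l, and the 4 symbols Rplp0, Rplp1, Rplp2 and Rpsa. This rule gave 84 of the 24421 genes listed, 51 of the large subunit (Rpl) and 33 of the small subunit (Rps). A few ribosomal proteins with other symbols, such as Fau and Gnb2l1, fell outside it and are given separately.

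The DF group was 1 library of differentiated 3T3-L1 cells that received DF (named DF-GA70 in the sample title) in the medium up to harvest. The control group was 1 library of the same line without DF. 3T3-L1 is a mouse preadipocyte line, a single clonal line used here at passages 10 to 13. A C57BL/6 background is recorded for it, which was not checked here. Both cultures were induced 2 days after confluence with insulin (1 µg/mL), dexamethasone (0.25 µM) and the phosphodiesterase inhibitor IBMX (0.5 mM) for 2 days and then kept in insulin. The sources used here state neither how much DF was added nor when the cells were collected. RNA was sequenced from the 3' ends of transcripts, and every value below is a deposited log2 value unless a fold is named.

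With 1 library in each group there is no replicate spread, so no difference below was tested and no p-value exists. Values are read as a comparison of those libraries and not of the conditions. Sequencing depth is unknown for both libraries, and both files hold nearly the same sorted values, with the highest 140 identical. A gene within those 140, at 13.98 or more, carries only its rank, which applied to 9 members in at least 1 library. Below them the values still follow rank closely. At rank 428, Larp4 in the DF library and Rplp0 in the control library both stood at 12.74. Folds of the other members are therefore also close to differences in rank. All 12 adipocyte markers on the list were well above the level floor used below in both libraries; Adipoq, which encodes adiponectin, was at 16.32 in DF cells and 16.08 in control cells. None of 9 macrophage markers reached the floor in either library, and 3 of them, Adgre1, Tyrobp and Fcer1g, were listed at 0 in both. Of 7 endothelial markers 1 reached it, Egfl7, while Kdr, Tek and Emcn were listed at 0 in both. In bulk RNA, fewer cells of a type and less of an RNA per cell cannot be told apart.

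As background, the ribosome has a small subunit, which holds the mRNA and reads its codons, and a large subunit, which forms peptide bonds and releases the chain through a tunnel. Apart from the acidic stalk proteins, ribosomal proteins are needed in equal numbers, and their genes are regulated together. Their mRNAs begin with a tract of pyrimidines (the TOP element), through which the mTOR pathway and the RNA-binding protein LARP1 control their translation and stability. In the mouse genome these genes have very many processed pseudogenes, copies of the mRNA that were inserted back into the genome.

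Pyrimidine runs at the start sites can be read from the sequence, and many members lack one in the RefSeq window. Windows of 30 bases centred on the RefSeq start (GRCm38.p6) are printed for 4 members with some of the most negative differences (Rps3a1, Rps4x, Rps9 and Rpl18), for Rpl7a and Rpl35, which have long runs, and for 3 with differences near or above 0 (Rpl37, Rpl7l1 and Rps27l). They were picked after the values were seen. Capitals mark runs of at least 7 C or T.
Rps3a1 (chr3:86142654-86142683, minus strand): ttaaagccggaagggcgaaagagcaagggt
Rps4x (chrX:102189377-102189406, minus strand): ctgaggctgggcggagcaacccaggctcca
Rps9 (chr7:3704026-3704055, plus strand): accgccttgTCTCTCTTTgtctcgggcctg
Rpl18 (chr7:45718056-45718085, plus strand): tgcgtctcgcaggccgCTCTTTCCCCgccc
Rpl7a (chr2:26910792-26910821, plus strand): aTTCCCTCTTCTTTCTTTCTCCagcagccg
Rpl35 (chr2:39005117-39005146, minus strand): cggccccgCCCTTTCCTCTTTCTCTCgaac
Rpl37 (chr15:5116598-5116627, plus strand): agtttcctgggcggaagcttatccacagga
Rpl7l1 (chr17:46782642-46782671, minus strand): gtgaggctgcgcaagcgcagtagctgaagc
Rps27l (chr9:66946071-66946100, plus strand): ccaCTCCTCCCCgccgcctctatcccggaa
RefSeq promoters were matched for 63 members, with 75 start sites. A run of at least 7 C or T on the transcript strand lay in 46.7% of these windows, against 18.6% of the 32851 windows of all promoters. Runs of A or G, which are C or T on the other strand, lay in 6.67% of member windows and 20.3% of all windows. Rpl7a had the longest run, of 21 bases.

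Another stretch common among the members was CCGGAAG, a core bound by ETS factors. Searched on both strands over the whole 300 bases of each promoter, it was in 36% of member start sites (32.6% of Rpl and 41.4% of Rps) and in 8.86% of all. TATAAA, the TATA box core, was in 9.33% of member start sites and 13.6% of all. Read on the other strand, CCGGAAG holds the letters CTTCC and can overlap a run of C or T.

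Most ribosomal protein genes were lower in the DF library. A gene was examined if it reached a floor of 8.18 on the log2 scale, the median of all values above 0, in at least 1 library. Of 78 members examined, 28 were lower by at least 1.5-fold and 1 was higher, and 72 had a difference (DF minus control) below 0. Among all 6761 genes examined, 10.9% were lower and 10.2% higher by the same limit, and 48.7% had a difference below 0. The median difference was -0.46 log2 units over the members and 0.01 over all genes examined.

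**Figure D1:**
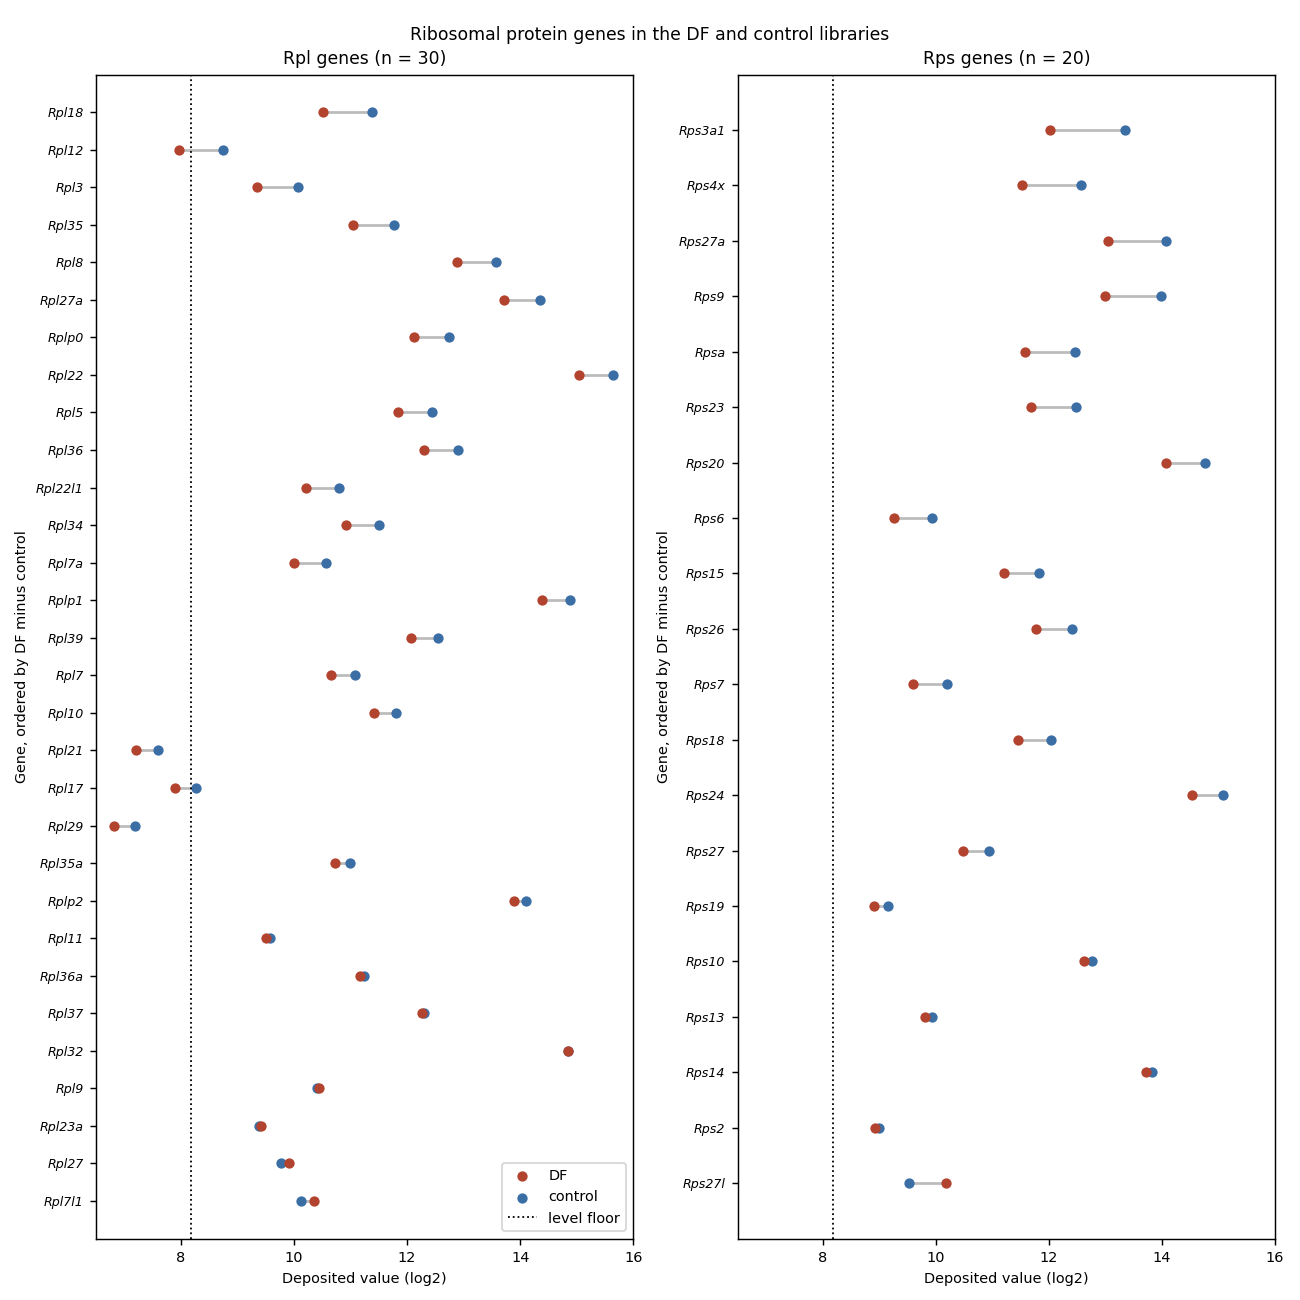
Deposited log2 values (x axis) of the 30 Rpl and 20 Rps genes above 0 that the text describes, with the DF library in red and the control library in blue, 1 value each. Genes run down each panel from the most negative difference; the DF point lies to the left of the control point in 26 Rpl and 19 Rps genes.

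Ribosomal protein genes are abundant, and the spread of differences narrows with level, so a second background was taken at their own level. Between the 10th and 90th percentile of the members' mean level (9.70 to 13.6 log2), 3280 other genes were examined. Of these, 6.98% were lower and 6.83% higher by at least 1.5-fold, 47.9% had a difference below 0 and the median was 0.02. The members' shares were 35.9% lower for all, 32.6% for Rpl and 40.6% for Rps.

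Members were also divided by what their promoters hold. The 33 members at the floor with a C or T run at the start had a median difference of -0.53, and the 27 without one had -0.35. The share lower by at least 1.5-fold ran the other way, at 33.3% with a run and 37% without, beside the 10.9% of all genes. For CCGGAAG the medians were -0.42 in 25 members with it and -0.46 in 35 without, and the shares lower were 28% with it and 40% without.

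**Figure D2:**
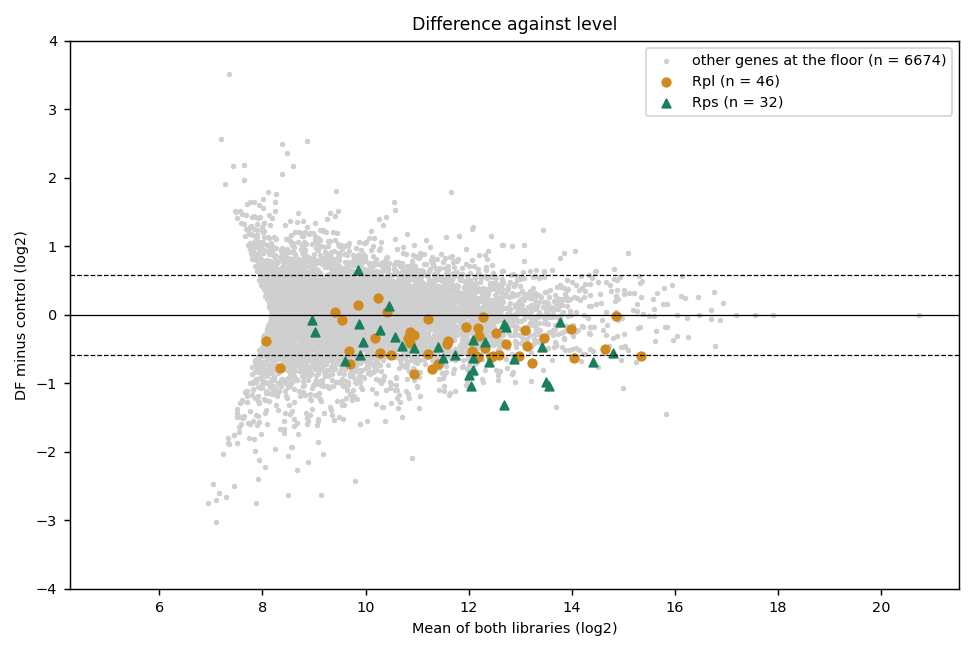
DF minus control (log2, y axis) against the mean of both libraries (log2, x axis) for all genes at the floor and above 0 in both libraries, with dashed lines at 1.5-fold. Rpl genes (circles) and Rps genes (triangles) lie mostly below 0 along their whole range of level; 3 other genes lie beyond the y axis.

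Large-subunit genes gave a narrow distribution. Of 46 Rpl members examined, 15 were lower by at least 1.5-fold and 0 higher; their median difference was -0.43, and their lowest was -0.86. Of 32 Rps members examined, 13 were lower and 1 higher, with a median of -0.48 and a lowest of -1.32. The SD across genes was 0.26 for 48 Rpl members and 0.38 for 32 Rps members above 0. Only Rps members passed 2-fold: 3 were lower and 0 higher by that limit. This was 9.38% of the Rps members and 3.85% of all members examined. Of all genes examined, 3.21% were lower and 2.56% higher by it, so the share of all members was close to that of all genes. Of the 3280 other genes at the members' level, a smaller share passed it, 45 lower and 29 higher. Among the members with no 75 nt window at the 3' end shared with another gene, the order was the other way round: 7 of 14 Rpl were lower by 1.5-fold, with a median of -0.56, and 1 of 5 Rps, with a median of -0.47. Which members share no window depends on the transcript chosen for each gene. The difference between the subunits was not tested.

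The members took a smaller share of the summed linear values in the DF library. All members together accounted for 2.04% of that sum in DF cells and 2.86% in control cells. The Rpl members made up 1.27% in DF cells and 1.69% in control cells, and the Rps members 0.77% in DF cells and 1.17% in control cells. Of the 80 members above 0, 74 held a lower rank among all genes in the DF library than in the control library.

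Among small-subunit genes, Rps3a1 stood farthest from 0. It encodes a protein of the platform (chromosome 3, 86137940 to 86142702, minus strand) and was at 12.02 in DF cells and 13.35 in control cells, 2.50-fold lower. Its rank among all genes was 804 in the DF library and 256 in the control library. Rps4x, the X-linked body protein, was at 11.53 in DF cells and 12.57 in control cells. Rps27a, made as a fusion with ubiquitin, was at 13.04 in DF cells and 14.08 in control cells, and its control value is among the identical highest ones. Rps4x and Rps27a were each 2.06-fold lower in the DF library.

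The next Rps genes did not reach 2-fold. Rps9, which lies at the entry of the mRNA channel, was at 13.00 in DF cells and 13.98 in control cells, 1.98-fold lower, its control value again among the identical highest. Rpsa, also known as the laminin receptor gene, was at 11.57 in DF cells and 12.46 in control cells, 1.85-fold lower. Rps23, a protein of the decoding centre, was at 11.68 in DF cells and 12.48 in control cells, 1.74-fold lower. Rps6, the substrate of S6 kinase, was lower in level than these, at 9.25 in DF cells and 9.94 in control cells, 1.60-fold lower.

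The abundant Rps genes were not uniform. Rps24 was at 14.52 in DF cells and 15.08 in control cells, a difference of -0.56, just short of the limit. Rps20, a head protein, was at 14.07 in DF cells and 14.77 in control cells, 1.62-fold lower. Rps14, a platform protein, was at 13.72 in DF cells and 13.83 in control cells, within 0.11 log2 units. Rps24 and Rps20 are among the identical highest values in both libraries, so their differences rest on ranks.

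A few Rps genes were close to equal in both libraries, and 1 was higher in the DF library by at least 1.5-fold. Rps2 was at 8.92 in DF cells, with a difference of -0.08 from control cells. Rps13 was at 9.80 in DF cells and 9.94 in control cells, and Rps10 at 12.62 in DF cells and 12.75 in control cells. The gene past the limit was Rps27l, described with its relative below.

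Within the small subunit, genes for the body and platform had more members past the limit than genes for the head. Of 17 body and platform genes, 10 were lower and 0 higher by 1.5-fold, all 17 had a difference below 0, and the median was -0.63. Of 14 head genes, 3 were lower and 0 higher, 13 had a difference below 0, and the median was -0.38. The shares lower were 58.8% for the body and platform and 21.4% for the head. Of all members examined 35.9% were lower, and of all genes examined 10.9%. The head genes past the limit were Rps27a, Rps20 and Rps15. This contrast was not tested, and the lists were chosen with earlier results of these data known. Single genes such as Rps2 and Rps14 in the body group lay nearer to 0 than most head genes.

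Among large-subunit genes, Rpl18 had the most negative difference. Rpl18 was at 10.52 in DF cells and 11.38 in control cells, 1.82-fold lower. Rpl3, a protein near the peptidyl transferase centre, was at 9.35 in DF cells and 10.07 in control cells, 1.65-fold lower. Rpl35, at the tunnel exit, was at 11.04 in DF cells and 11.76 in control cells, 1.64-fold lower. Rpl8 was at 12.88 in DF cells and 13.58 in control cells, 1.63-fold lower.

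The most abundant Rpl genes spread from 1.54-fold lower to nearly equal. Rpl22, an RNA-binding protein of the large subunit, led all members in both libraries, at 15.04 in DF cells and 15.64 in control cells. Rpl27a was at 13.72 in DF cells and 14.35 in control cells, 1.54-fold lower. Rpl32, by contrast, was at 14.84 in DF cells and 14.85 in control cells, with a rank of 68 in DF cells and 67 in control cells. Both values of Rpl22 and Rpl32 and the control value of Rpl27a are among the identical highest ones, so these differences rest on ranks.

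The Rpl genes with the highest differences did not reach 1.5-fold. Rpl27 was at 9.92 in DF cells and 9.77 in control cells. Rpl23a was at 9.42 in DF cells and 9.38 in control cells, and Rpl9 at 10.45 in DF cells and 10.41 in control cells. Rpl7l1, a paralog of Rpl7, had the highest difference of the large subunit, 0.24.

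The stalk of the large subunit recruits the translation factors. Its base protein gene Rplp0 was at 12.12 in DF cells and 12.74 in control cells, 1.53-fold lower. Of the acidic stalk proteins, Rplp1 was at 14.39 in DF cells and 14.88 in control cells, 1.41-fold lower, and Rplp2 at 13.89 in DF cells and 14.09 in control cells, 1.15-fold lower. Rpl12, which sits at the stalk base, was 1.71-fold lower, at 7.96 in DF cells and 8.74 in control cells. All 4 stalk genes had a difference below 0, and 2 were lower by 1.5-fold, beside 10.9% of all genes examined. Of the 2, Rpl12 reached the floor in the control library alone. Both values of Rplp1 and the control value of Rplp2 are rank values.

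Rpl5 and Rpl11 form a particle with 5S ribosomal RNA that can also bind the p53 regulator Mdm2. They differed from each other in these libraries. Rpl5 was at 11.84 in DF cells and 12.44 in control cells, 1.51-fold lower, whereas Rpl11 was at 9.50 in DF cells and 9.57 in control cells.

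Around the tunnel exit, 2 of 8 genes (Rpl35 and Rpl22) were lower by 1.5-fold, 0 were higher, and the median was -0.40. The share lower was 25%, beside 10.9% of all genes examined. Rpl39, a very small protein of the tunnel wall, was at 12.07 in DF cells and 12.55 in control cells. Among the 4 X-linked members Rps4x alone passed the limit. Rpl10, which joins the large subunit late, was at 11.41 in DF cells and 11.80 in control cells, and Rpl36a at 11.17 in DF cells and 11.24 in control cells.

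Genes mutated in the human anaemia named after Diamond and Blackfan included members on both sides of the limit. Of 9 such genes, 3 were lower by 1.5-fold (Rps26, Rpl5 and Rps7) and 0 were higher, with a median of -0.26. Their share lower, 33.3%, was near the 35.9% of all members examined, beside 10.9% of all genes examined. Rps19, the gene most often mutated there, was at 8.90 in DF cells and 9.15 in control cells. Rpl35a was at 10.73 in DF cells and 10.99 in control cells. Rps26 was at 11.78 in DF cells and 12.40 in control cells, and Rps7 at 9.60 in DF cells and 10.20 in control cells.

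The 1.5-fold limit cuts through a dense part of the distribution. Rpl22l1 (-0.59), Rpl36 (-0.59), Rps7 (-0.60) and Rpl5 (-0.60) lay just inside it. Rps18 (-0.58), Rpl34 (-0.58), Rpl7a (-0.56) and Rps24 (-0.56) lay just outside. The count of 28 therefore moves with small changes of the limit. At a limit of 0.32 log2 units, 53 of the 78 members were lower, while 23.7% of all genes examined were lower and 24.7% higher by that limit.

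Of the paralogs whose names the rule matches, 4 were listed at 0 in both libraries, namely Rpl3l, Rpl10l, Rpl39l and Rps4l. As background, Rpl3l is a gene of heart and skeletal muscle, and Rpl10l and Rpl39l are genes of the testis. The 3 others were present and did not move alike. Rpl22l1 was at 10.20 in DF cells and 10.79 in control cells, a difference of -0.59 that lay beside the -0.61 of Rpl22. Rpl7l1 was at 10.35 in DF cells and 10.12 in control cells, whereas Rpl7 was at 10.66 in DF cells and 11.07 in control cells.

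Rps27l, known in human cells as a gene induced by p53, was at 10.17 in DF cells and 9.52 in control cells, 1.57-fold higher (chromosome 9, 66946086 to 66949516, plus strand). Its relative Rps27 was at 10.48 in DF cells and 10.93 in control cells. As values per transcript end, Rps27 exceeded Rps27l 1.24-fold in DF cells and 2.66-fold in control cells. The 3' end of Rps27 is not unique, since every 75 nt window of its last 300 nt also occurs in another annotated gene, against 13.3% of those of Rps27l.

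The files also list retrocopies and pseudogenes whose symbols name a member. There were 9 such entries, all with a difference below 0. Of the 7 examined, 2 were lower by 1.5-fold and 0 higher, and their median was -0.50. The share lower was 28.6%, beside 10.9% of all genes examined. Rplp2-ps1 was more abundant than Rplp2 itself, at 15.72 in DF cells and 15.89 in control cells, which is 3.56-fold above Rplp2 in DF cells and 3.48-fold above it in control cells. Of the 75 nt windows at the end of Rplp2, 66.8% occur in 1 other annotated gene, Wdr89.

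Rpl37 and its copy did not match. Rpl37 was at 12.26 in DF cells and 12.30 in control cells, while Rpl37rt was at 13.93 in DF cells and 14.50 in control cells. Added on the linear scale, the pair differed by -0.46 log2 units. Rpl36al, a copy outside the rule, was at 9.50 in DF cells and 10.43 in control cells, 1.90-fold lower, beside a nearly equal Rpl36a; their sum differed by -0.33. The sources used here do not state how reads that fit several copies were counted, so values of such members are uncertain.

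**Figure D3:**
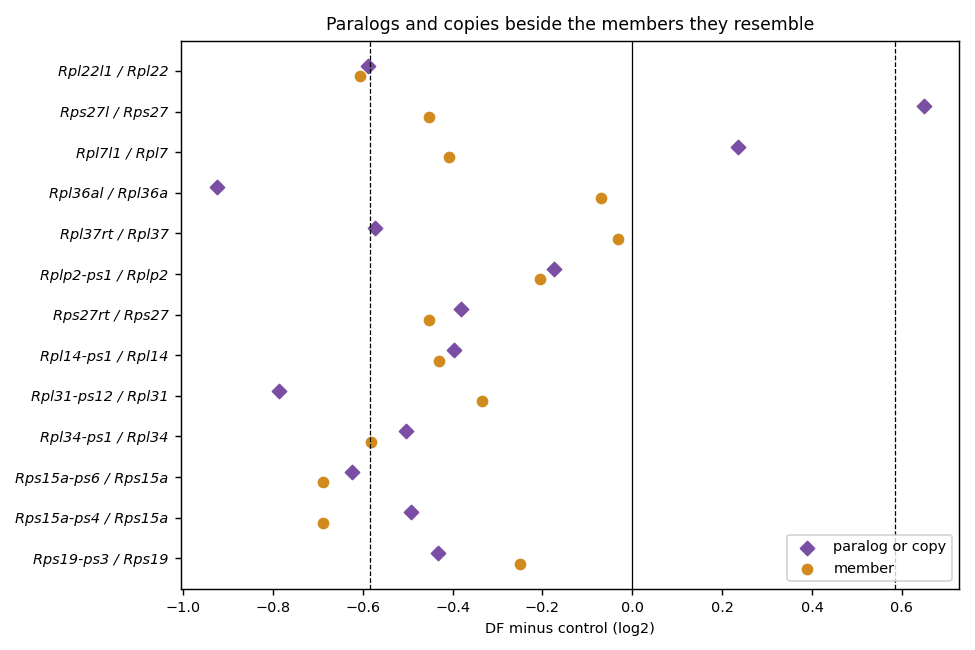
DF minus control (log2, x axis) of 13 pairs, with the paralog, retrocopy or pseudogene as a diamond and the member as a circle; dashed lines mark 1.5-fold. Most pairs lie together below 0; Rps27l (0.65) and Rpl7l1 (0.24) lie on the other side of 0 from Rps27 and Rpl7.

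Members with at least 50% of their 3' end windows shared with other genes had lower median levels than members with none. For 83 members with a GENCODE vM21 coding gene, the last 300 nt of the shortest principal transcript were searched for exact 75 nt windows in transcripts of other genes. The 39 members above 0 with at least 50% of windows shared had median values of 10.66 in DF cells and 11.09 in control cells. The 19 members without a shared window had medians of 12.11 in DF cells and 12.50 in control cells. The 22 members with some windows shared, but under 50%, were near these, at 11.60 in DF cells and 12.31 in control cells. Spearman's rho between the shared share and the mean level was -0.11 in 46 Rpl members examined and -0.47 in 32 Rps members. Rpl21, which shares windows with 39 other genes, was at 7.19 in DF cells and 7.58 in control cells. Together with Rpl29, at 6.81 in DF cells and 7.18 in control cells, it stayed under the floor. Rpl17, which shares windows with 14 other genes, was at 7.89 in DF cells and 8.27 in control cells.

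Members with no shared window in the transcript chosen were also mostly lower in the DF library. That class depends on the transcript chosen. Rpl37 and Rpl14 had no shared window although the copies Rpl37rt and Rpl14-ps1 are listed. Whether reads at these ends were unique was not tested. Of the 19 without a shared window, 8 were lower by 1.5-fold and 0 higher, with a median of -0.53. Of the 21 examined with some windows shared but under 50%, 8 were lower and 1 higher, with a median of -0.48. Of the 38 examined with at least 50% shared, 12 were lower and 0 higher, with a median of -0.41. Among all genes examined, 10.9% were lower and 10.2% higher by that limit. Across the 78 members examined, Spearman's rho between the shared share and the difference was 0.07, and between the mean level and the difference -0.25. Transcript length gave -0.37. These are descriptions across genes of the same pair of libraries.

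**Figure D4:**
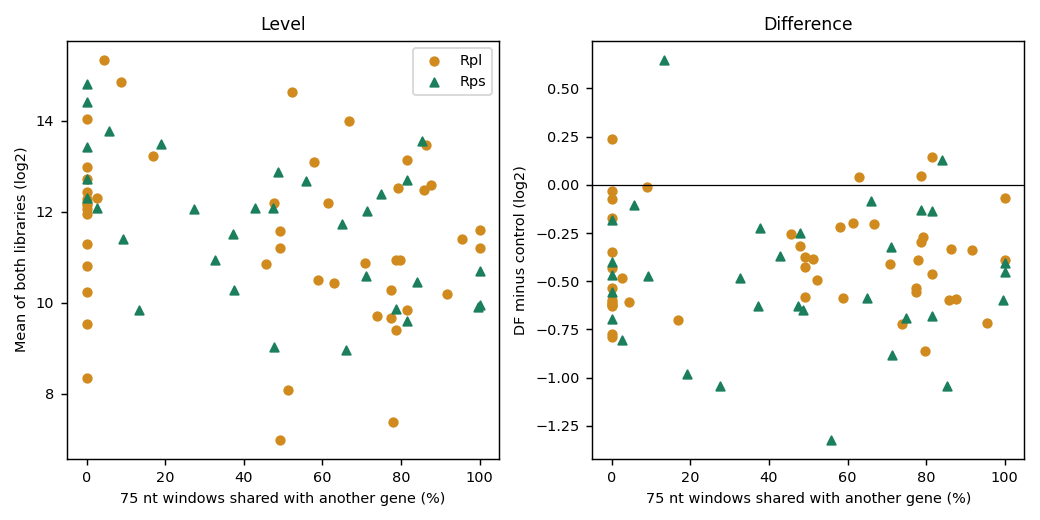
Percentage of 75 nt windows in the last 300 nt that occur in another gene (x axis, both panels) against the mean level of both libraries (left, log2) and DF minus control (right, log2), for the 80 members above 0. Members with at least 50% of windows shared have a lower median level than members with none, while differences below 0 occur along the whole axis.

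Ribosomal proteins with other symbols also had differences below 0. Gnb2l1, which encodes the head protein Rack1, was at 13.97 in DF cells and 14.54 in control cells, 1.49-fold lower. Fau was at 13.67 in DF cells and 14.03 in control cells.

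Other mRNAs with a TOP element had a like median. Of 17 examined, 4 were lower by 1.5-fold and 0 higher, with a median of -0.52. The share lower was 23.5%, beside 10.9% of all genes examined. Eef1a1, the main elongation factor, was at 14.83 in DF cells and 15.34 in control cells, and Eef2, the translocation factor, at 14.63 in DF cells and 15.29 in control cells. Eif3f, an initiation factor subunit, was 1.98-fold lower, and Eef1b2, an exchange factor subunit, 1.74-fold lower. Pabpc1 (13.12 in DF cells and 13.24 in control cells) and Hnrnpa1 (10.82 in both) were near equal.

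Mitochondrial ribosomal proteins, which build a separate ribosome, had a median difference of 0.20. Of 77 listed, 64 were examined. Of these 64, 3 were lower and 16 higher by 1.5-fold, and 20 had a difference below 0. Under the floor, Mrpl23, Mrpl48, Mrps22, Mrps28 and Mrps31 were lower past that limit, and Mrpl21 and Mrps27 were higher. The shares over all genes examined were 10.9% lower and 10.2% higher. Mrps11 was at 8.51 in DF cells and 7.27 in control cells, 2.37-fold higher. Mrpl3 was at 11.12 in DF cells and 10.02 in control cells, 2.15-fold higher. Mrpl40 was at 8.54 in DF cells and 7.48 in control cells, 2.09-fold higher. Among the 16 higher genes, Mrps11, Mrpl40, Mrpl13, Mrpl22 and Mrpl32 reached the floor in the DF library alone. Among the 3 lower genes, Mrpl27 and Mrpl50 reached it in the control library alone. The most abundant genes, Mrps6 and Mrps23, did not reach the limit: Mrps6 was at 12.94 in DF cells and 13.03 in control cells, and Mrps23 at 12.95 in DF cells and 12.57 in control cells.

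Genes that assemble ribosomes had a median difference of 0.18. Of 37 listed, 29 were examined. Among these 29, 0 were lower and 5 higher by 1.5-fold, and 10 had a difference below 0. Under the floor, Bop1, Utp14a, Grwd1 and Taf1b were lower past that limit and Rrp12 was higher. The count of 0 lower therefore depends on the floor. All genes examined gave 10.9% lower and 10.2% higher. Nop58, a core protein of small nucleolar particles, was 2.11-fold higher, at 9.58 in DF cells and 8.50 in control cells. Rrp9, a protein of the U3 particle, was at 8.25 in DF cells and 6.91 in control cells, 2.53-fold higher. Wdr12, an assembly factor of the large subunit, was at 8.88 in DF cells and 7.90 in control cells, 1.97-fold higher. Rrp9 and Wdr12 reached the floor in the DF library alone. Ubtf, the RNA polymerase I factor, was at 14.05 in DF cells and 13.66 in control cells, and Bysl, an assembly factor of the small subunit, at 12.22 in DF cells and 12.60 in control cells.

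Of 14 examined genes of mTOR signalling, Myc and LARP1, 0 were lower and 1 higher by 1.5-fold, with a median of 0.39. Among all genes examined 10.2% were higher, so a count of 1 higher is not above background. Rragc, a GTPase that brings mTOR to the lysosome, was 1.64-fold higher, at 10.25 in DF cells and 9.54 in control cells. Larp1 was at 10.94 in DF cells and 10.75 in control cells, Larp4 at 12.74 in DF cells and 12.37 in control cells, and Myc at 9.06 in DF cells and 8.56 in control cells.

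Markers of undifferentiated precursors were mixed. Of 10 listed, 5 were examined, and 3 of these were lower by 1.5-fold and 0 higher, beside 10.9% of all genes lower. Ly6a was at 9.10 in DF cells and 10.69 in control cells, Dlk1 at 15.10 in DF cells and 16.55 in control cells, and Pdgfra at 9.65 in DF cells and 10.99 in control cells, whereas Pdgfrb (10.58 in DF cells and 10.51 in control cells) and Sox9 were near equal. Cd34 was listed at 0 in both libraries. The list held 0.21% of all linear values summed in DF cells and 0.54% in control cells, most of it Dlk1, whose values in both libraries are ranks. Without Dlk1 it held 0.024% in DF cells and 0.037% in control cells. Adipocyte markers held 4.09% in DF cells and 3.57% in control cells. Of 12, 2 were higher by 1.5-fold (Cidec and Cd36), beside 10.2% of all genes examined. Of these 12 markers 10, Cidec and Cd36 included, are among the identical highest values, so their differences rest on ranks. The part of these markers in the ribosomal protein result was not tested.

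**Figure D5:**
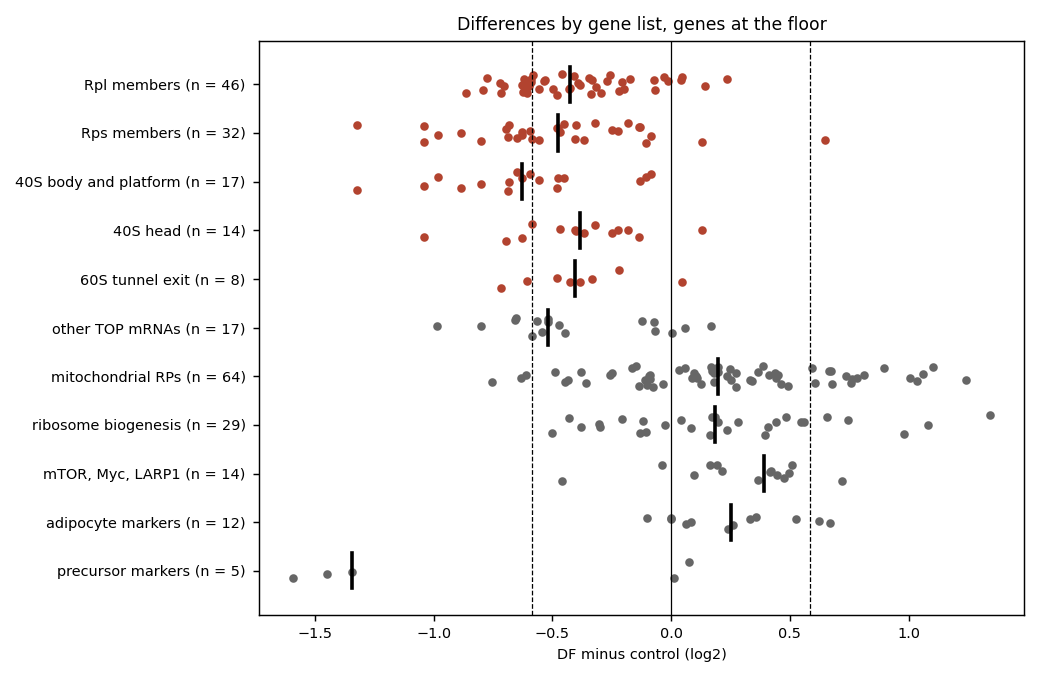
DF minus control (log2, x axis) for each gene at the floor, by list, with the median as a black bar and dashed lines at 1.5-fold; ribosomal lists are red, other lists grey. Medians are -0.43 for Rpl, -0.48 for Rps and -0.52 for other TOP mRNAs, against 0.20 for mitochondrial ribosomal proteins and 0.18 for ribosome biogenesis.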

How the data were processed

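The files hold log2 values as the authors deposited them, 1 per gene symbol and library. Bowtie2, edgeR and mm10 are named, without versions, in the submitters' processing notes. The sources used here give no normalization, counter, annotation or strand setting. From the values, both libraries appear quantile normalized, which removes any difference in total output. Libraries came from 500 ng of total RNA and were read as single 75 nt reads, per the labels' protocols.

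DF minus control was taken on that scale, with no pseudocount. The level floor was 8.18 (290.75 on the linear scale). Promoters are from RefSeq (GRCm38.p6) and positions and transcripts from GENCODE vM21 on GRCm38, the assembly of mm10. Named are the 5 most abundant, 6 lowest and 4 highest members of each subunit, the members of fixed lists, and in other lists the 2 most abundant genes and up to 3 with the largest difference past the limit; a few further genes were chosen after their values were seen. Some genes this rule names are not reported here. Members and lists were chosen with earlier results of these data known. The counting was tested on simulated data. Alternatives varied the fold limit, floor, pseudocount, centring and membership. Calculations used Python 3.11.15, pandas 2.3.3 and scipy 1.17.1.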

Additional observations from a re-analysis of the deposited data

How the results depend on the processing

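The median difference of the members stayed below 0 and within 1.5 times of its value under each of the 7 alternatives that could move it (both floors, the pseudocount and the 4 changes of membership), for all members and for Rpl and Rps apart. The fold limit does not enter the median, and the centrings shift every gene by the same 0.013 or 0.016 log2 units. Over all members it ranged from -0.53 (members with no shared 75 nt window, an alternative added after the data were seen) to -0.43 (without the identical highest values). Counts depend on the fold limit. At 2-fold 3 of 78 members were lower (0 Rpl, 3 Rps), or 3.85%, close to the 3.21% of all genes examined. Of the 3280 other genes at the members' level, 45 were lower by 2-fold, a smaller share. At a limit of 0.32 log2 units 53 of 78 were lower (30 Rpl, 23 Rps), where 23.7% of all genes examined were lower. With members of no shared window alone, 8 of 19 were lower (7 of 14 Rpl, 1 of 5 Rps). The counts are smaller with fewer genes, but the shares moved too, to 50% of Rpl, against 32.6% of all Rpl examined, and to 20% of Rps, against 40.6% of all Rps examined; the cause was not tested. No floor, a floor of 10, a pseudocount of 16, both centrings, and leaving out paralogs, members with a listed -ps symbol or the identical highest values gave 23 to 30 lower members. The difference of each of the 78 examined members moved by less than 0.1 log2 units under the pseudocount and both centrings. No paired analysis was possible because each group holds 1 library. The unknown depth and the lack of replicates limit every value.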
